A study of Homo sapiens with 6 samples.

Results

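The 10 genes described here encode transcription factors that set the mesenchymal state or act on collagen genes: TWIST1, TWIST2, PRRX1, SNAI1, SNAI2, ZEB1, ZEB2, RUNX1, RUNX2 and CREB3L1. They were taken by gene symbol from a deposited table of 23754 features, and each symbol matched 1 feature with an Ensembl identifier. All 10 had enough reads to be tested, among 13991 features that did. The cells were IMR-90, an established line of human fetal lung fibroblasts, carrying a doxycycline-inducible short hairpin (sh-2) against ZNF469, a zinc finger protein, in a lentiviral vector under puromycin selection. In the Sh-ZNF469 group (DOX+, 3 libraries) the hairpin was induced with 2 µg/mL doxycycline for 4 days. In the Control group (DOX-, 3 libraries) the same line was grown without doxycycline. The submitted labels give the genotype of this group as Wild-type, while the methods describe the line as carrying the hairpin without induction. Every DOX+ library therefore received both the drug and the hairpin, and the effects of the drug and the hairpin cannot be told apart in these libraries. The submitted design text calls the 3 libraries of a group technical replicates, so p-values measure the spread between libraries, which may hold no variation between cultures.

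Fibroblasts keep their identity with a small set of DNA-binding proteins first known from the embryo. The SNAI and ZEB zinc finger proteins and the TWIST basic helix-loop-helix proteins bind E-box sequences and are known for the epithelial-mesenchymal transition, in which they shut off epithelial adhesion genes such as CDH1. PRRX1 is a homeodomain protein of limb and craniofacial mesenchyme and of fibroblasts. RUNX1 and RUNX2 share a Runt domain and bind DNA with the partner CBFB, RUNX1 being known for blood formation and RUNX2 for bone formation. CREB3L1, also called OASIS, is a membrane-bound factor of the endoplasmic reticulum that is released by cleavage and is known to activate type I collagen genes. The comparison asks whether the messenger RNA of these factors changed when ZNF469, proposed as a regulator of collagen genes, was lowered.

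The libraries held 34057675 to 36120260 counted reads. ZNF469 itself measured 118, 112 and 126 CPM (counts-per-million, on library sizes scaled by the TMM method) in the DOX- libraries and 80.4, 80.4 and 79.6 CPM in the DOX+ libraries, so the libraries bear out their labels, with a log2 fold change of −0.57 (standard error 0.0477, adjusted p = 3.31e-05, edgeR). Fold changes are DOX+ over DOX-. Adjusted p-values are from the quasi-likelihood test of edgeR, adjusted by the Benjamini-Hochberg method for the 13991 tested features, unless another tool is named. Of 10 fibroblast markers all were detected, with summed levels of 36849 to 37972 CPM in DOX- cells and 27479 to 28374 CPM in DOX+ cells. COL1A1, COL1A2, COL3A1, DCN and LUM fell at an adjusted p under 0.05 in edgeR, LUM narrowly (0.0499). PDGFRA, PDGFRB, THY1, VIM and FAP did not pass, with log2 fold changes from −0.02 to 0.04 (adjusted p from 0.605 to 0.985, edgeR). Markers of other cells summed to at most 5.99 CPM for epithelium (SFTPC, SFTPB, KRT5 and SCGB1A1 at 0 in all libraries), at most 10.8 CPM for endothelium (PECAM1 and CDH5 at 0) and at most 66.8 CPM for immune cells, nearly all from CD68 (LYZ and CD3E at 0). Smooth muscle and pericyte markers, which fibroblasts also express, summed to 781 to 849 CPM, and 0 of 6 passed an adjusted p of 0.05 in edgeR. CSPG4 and RGS5, 2 of 6, had an unadjusted p under 0.05 in edgeR, beside 15.0% of all tested features. DESeq2 passed CSPG4. DOX+ replicate 2 stood apart on the first principal component (23.9% of the variance), and DOX+ replicate 3 and DOX- replicate 1 lay at opposite ends of the second (21.4%). In bulk RNA, fewer cells of a kind and less RNA per cell cannot be told apart.

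The levels of the 10 factors differed widely and were compared per transcript length, in the deposited FPKM values. CREB3L1 was the most abundant, at 104 ± 3.12 FPKM (SD, n = 3) in DOX- cells, above 97.0% of the features with any signal. SNAI2 followed at 45.3 ± 0.231 FPKM (SD, n = 3). ZEB1 (18.6 ± 0.683 FPKM) and PRRX1 (17.5 ± 0.518 FPKM) had overlapping ranges over the DOX- libraries, and so had TWIST2 (16.3 ± 0.287 FPKM) and ZEB2 (15.4 ± 2.43 FPKM; each SD, n = 3). The range of ZEB2, from 13.6 to 18.1 FPKM, also reached those of PRRX1 and ZEB1. RUNX1 lay lower at 10.9 ± 0.342 FPKM, and TWIST1 (5.08 ± 1.34 FPKM) and SNAI1 (4.92 ± 0.429 FPKM) overlapped each other (each SD, n = 3). RUNX2 was the lowest, at 3.12 ± 0.101 FPKM (SD, n = 3), still above 52.4% of features with signal. Of the closest relatives, SNAI2 and TWIST2 were thus the prevailing SNAI and TWIST messages in these fibroblasts: TWIST1 stood at 0.303 of the FPKM of TWIST2, SNAI1 at 0.108 of that of SNAI2, ZEB1 at 1.22 times that of ZEB2, and RUNX1 at 3.51 times that of RUNX2 (geometric means of the DOX- libraries). With CPM per kilobase of the canonical transcript in place of FPKM, the same ratios were 0.264 for TWIST, 0.115 for SNAI, 1.96 for ZEB and 5.62 for RUNX, and RUNX1 (13.5 CPM per kilobase) stood above ZEB2 (10.2) and SNAI1 (5.42) above TWIST1 (5.06).

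**Figure D1:**
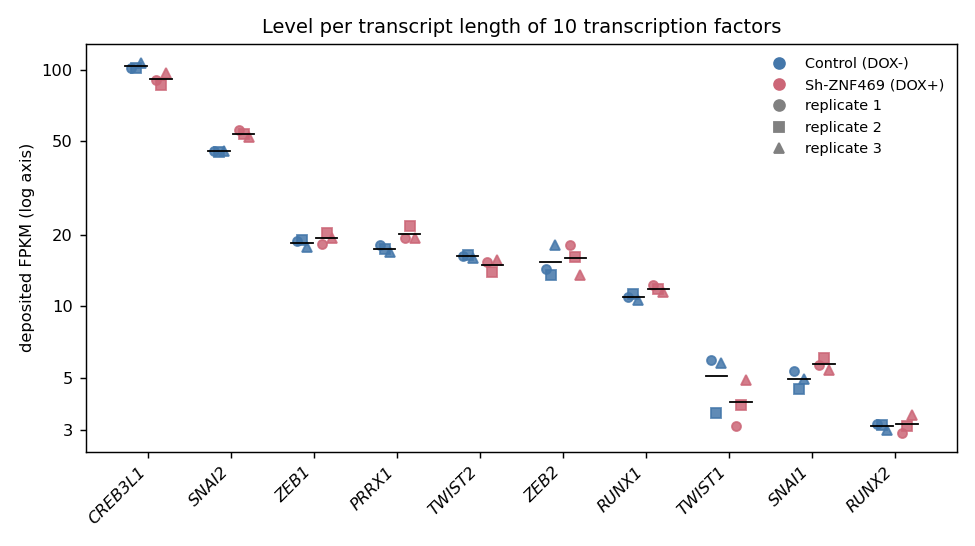
Deposited FPKM (fragments scaled to transcript length and sequencing depth, log axis) of each factor in 3 DOX- and 3 DOX+ libraries, ordered by the DOX- mean, with lines at group means. CREB3L1 and SNAI2 stand above the other 8 factors in every library, and RUNX2, SNAI1 and TWIST1 lie between 2.91 and 6.02 FPKM.

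Between the groups, SNAI2 rose to 117% and CREB3L1 fell to 86.1% of the DOX- level, and the other 8 factors did not pass an adjusted p of 0.05. The share of all tested features that passed was 0.400% upward and 0.715% downward (1.12% in all), against 1 of 10 factors in each direction. Without DOX+ replicate 2 there were 1 factor upward (SNAI2) and 0 downward, among 38 and 78 features. Without DOX+ replicate 3 there were 1 (SNAI2) and 1 (CREB3L1), among 69 and 92 features, and without DOX- replicate 1 there were 0 and 0, among 27 and 55. DESeq2 passed 3 of the 10, PRRX1 being the addition, and 3.77% of all features. No factor had an absolute log2 fold change over 1, which together with an adjusted p under 0.05 was met by 0.0429% of features. At an unadjusted p under 0.05 in edgeR, where 15.0% of features lay, there were 4 of 10 factors: SNAI2 and PRRX1 higher (7.31% of features) and CREB3L1 and TWIST2 lower (7.69%). In 5 of 10 the DOX- and DOX+ values did not overlap, as in 20.3% of features: SNAI2, PRRX1 and RUNX1 lay higher (9.73% of features) and CREB3L1 and TWIST2 lower (10.6%). The median log2 fold change of the 10 was 0.06 (7 higher, 3 lower), beside −0.0019 for all features. For 9 of the 10, TWIST1 being the exception, the 95% interval of the log2 fold change lay within 0.5 of 0.

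**Figure D2:**
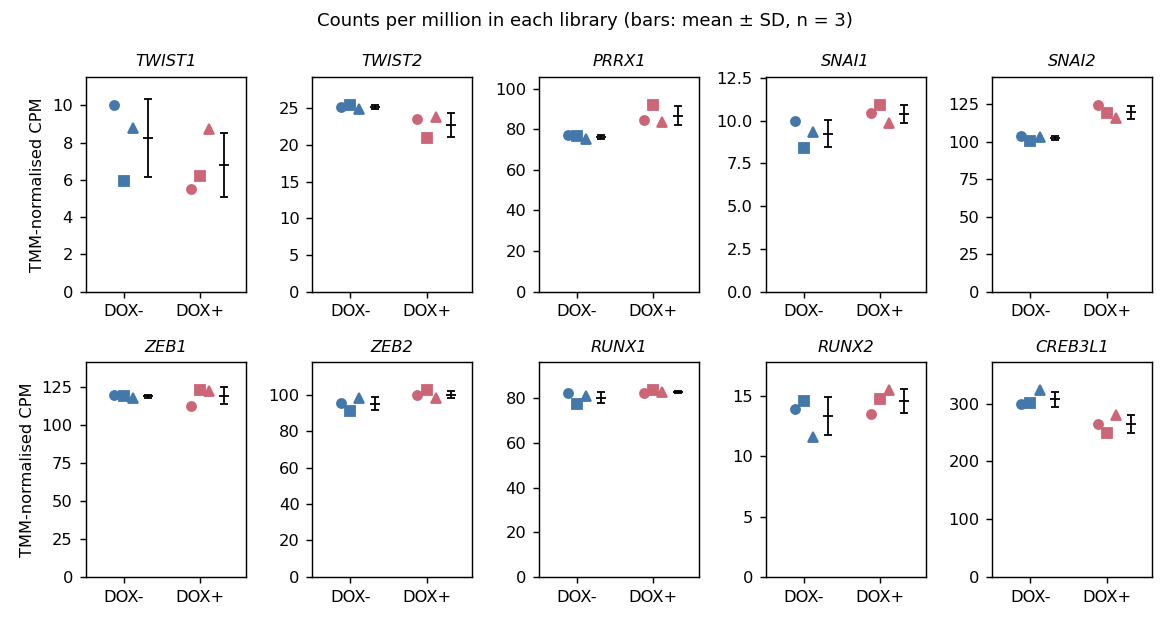
TMM-normalised CPM of each factor in the DOX- (blue) and DOX+ (red) libraries, with circles, squares and triangles for replicates 1, 2 and 3, and bars for the mean ± SD (n = 3) on axes that start at 0. SNAI2 and PRRX1 lie higher and CREB3L1 and TWIST2 lower in every DOX+ library, whereas TWIST1 spreads from 5.49 to 10.0 CPM across both groups.

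SNAI2, or Slug, represses epithelial genes through E-boxes and is the snail factor of neural crest and many fibroblasts. The gene (ENSG00000019549) lies on chromosome 8 of GRCh38 from 48917598 to 48921740, on the minus strand. Its level was 103, 101 and 103 CPM in DOX- replicates 1, 2 and 3 and 124, 119 and 116 CPM in DOX+ replicates 1, 2 and 3. The highest DOX- library was below the lowest DOX+ library. SNAI2 thus rose from 102 ± 1.49 CPM to 120 ± 4.39 CPM (SD, n = 3), to 117% of the DOX- level (95% interval 110% to 124%; log2 fold change 0.23, standard error 0.0416, adjusted p = 0.019, edgeR). The exact permutation test of the same values gave p = 0.1, below which a design of 3 and 3 libraries cannot go. With any one library left out SNAI2 stayed higher (log2 fold change 0.20 to 0.25), but the adjusted p of edgeR rose to 0.0775, 0.0869 and 0.07 without DOX- replicate 1, 2 or 3 and to 0.138 without DOX+ replicate 1.

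SNAI1, or Snail, the related factor known as the early repressor of CDH1, lies on chromosome 20 from 49982980 to 49988886 (ENSG00000124216, plus strand). It measured 9.98, 8.39 and 9.35 CPM in the DOX- libraries and 10.5, 10.9 and 9.86 CPM in the DOX+ libraries, from 295 to 387 reads. The groups overlapped, since DOX- replicate 1 lay above DOX+ replicate 3. The level in DOX+ cells was 113% of that in DOX- cells with an interval from 96.3% to 132% (log2 fold change 0.17, standard error 0.105, adjusted p = 0.472, edgeR), so an increase as large as that of SNAI2 lies inside the interval. With one library left out, the log2 fold change of SNAI1 ranged from 0.11 without DOX- replicate 2 to 0.23 without DOX- replicate 1.

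PRRX1 lies on chromosome 1 from 170662728 to 170739421 (ENSG00000116132, plus strand). It measured 77.0, 76.6 and 75.1 CPM in the DOX- libraries and 84.5, 92.0 and 83.4 CPM in the DOX+ libraries. The groups did not overlap, and DOX+ replicate 2 was the highest. The ratio was 114% (interval 106% to 122%; log2 fold change 0.18, standard error 0.0463), with an unadjusted p of 0.00161 and an adjusted p of 0.0823 in edgeR. DESeq2 gave an adjusted p of 0.0107 for it, and edgeR one of 0.0444 when features with few reads were kept. Without DOX+ replicate 2 the log2 fold change was 0.14. Its relative PRRX2, a homeodomain gene of the same family, measured 84.3, 84.0 and 89.6 CPM in DOX- libraries and 78.7, 75.7 and 78.8 CPM in DOX+ libraries, on the other side of 0 (log2 fold change −0.15, adjusted p = 0.14, edgeR).

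TWIST1 and TWIST2 encode near relatives that pair with the E proteins TCF3, TCF4 and TCF12. TWIST2 (ENSG00000233608) lies on chromosome 2 from 238848032 to 238910534, plus strand, and TWIST1 (ENSG00000122691) on chromosome 7 from 19020991 to 19117636, minus strand. TWIST2 measured 25.1, 25.4 and 24.9 CPM in the DOX- libraries and 23.5, 20.9 and 23.8 CPM in the DOX+ libraries. The DOX+ values all lay below the DOX- values, at 90.3% of their level (interval 81.7% to 99.9%; log2 fold change −0.15, adjusted p = 0.329, edgeR). Without DOX+ replicate 2, the lowest library, the log2 fold change of TWIST2 was −0.09.

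TWIST1 measured 10.0, 5.94 and 8.77 CPM in the DOX- libraries and 5.49, 6.18 and 8.73 CPM in the DOX+ libraries. The lowest DOX- value lay below 2 of the 3 DOX+ values, and the groups overlapped. The coefficient of variation within a group was 25.3% in DOX- and 25.0% in DOX+ libraries, where counting error alone at its mean count gives 6.15%. Its biological coefficient of variation by edgeR was 18.1%, against 13.8% on the trend for features of that abundance, a ratio at or above that of 96.3% of features. The log2 fold change of −0.28 therefore came with a standard error of 0.197 and an interval from 61.5% to 111% of the DOX- level (adjusted p = 0.545, edgeR), the widest of the 10. It ranged from −0.50 without DOX+ replicate 3 to −0.11 without DOX- replicate 1. An unannotated locus assembled by the authors also carries the name TWIST1 in the table's second symbol column; it had 0 to 9 reads per library and was not counted as a member.

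ZEB1 and ZEB2 are large zinc finger and homeodomain repressors that bind paired E-boxes and recruit the CTBP corepressors. ZEB1 (ENSG00000148516) lies on chromosome 10 from 31318495 to 31529814, plus strand. The RefSeq promoter window at the start of its canonical transcript, from 250 bases before the start site to 50 after it, is shown because it holds the ZEB and SNAI E-box itself. The letters CAGGTG were searched on both strands, so that CACCTG is a match on the reverse strand, and 3 matches (capitals) lie 242 and 85 bases before and 33 bases after the start.
ZEB1 promoter, GRCh38.p14, chr10:31318966-31319265, plus strand: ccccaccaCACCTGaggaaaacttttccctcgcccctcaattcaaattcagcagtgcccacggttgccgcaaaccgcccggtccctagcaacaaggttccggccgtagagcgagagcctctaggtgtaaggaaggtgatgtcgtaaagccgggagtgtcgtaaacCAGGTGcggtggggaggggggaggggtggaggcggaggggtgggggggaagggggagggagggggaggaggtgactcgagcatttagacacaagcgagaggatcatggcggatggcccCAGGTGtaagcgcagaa
At least 1 match was present in 20.6% of the 35116 RefSeq promoter windows of this length and 3 or more in 0.635%. The first match shares bases with a match to the RUNX letters described below. A match is a run of letters and was not tested for binding.

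The message of ZEB1 measured 120, 119 and 118 CPM in DOX- libraries and 113, 123 and 123 CPM in DOX+ libraries. DOX+ replicate 1 lay below all DOX- libraries and the other two above them. ZEB1 was at 100% of the DOX- level with an interval from 94.1% to 107% (log2 fold change 0.01, standard error 0.0433, adjusted p = 0.968, edgeR), and the sign turned to −0.02 with the trend on transcript length removed. ZEB2 (ENSG00000169554, chromosome 2 from 144364364 to 144521057, minus strand) measured 95.5, 91.1 and 98.2 CPM in DOX- libraries and 99.6, 102 and 98.1 CPM in DOX+ libraries. DOX- replicate 3 and DOX+ replicate 3 overlapped, and ZEB2 was at 105% (interval 98.8% to 112%; log2 fold change 0.07, adjusted p = 0.444, edgeR). The log2 fold change of ZEB2 ranged from 0.0471 without DOX- replicate 2 to 0.0998 without DOX- replicate 3. It was 0.0324 with the trend on transcript length removed. Over both ZEB genes the intervals span 94.1% to 112% of the DOX- level.

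RUNX2 (ENSG00000124813) lies on chromosome 6 from 45328157 to 45664349, plus strand, and RUNX1 (ENSG00000159216) on chromosome 21 from 34787801 to 36004667, minus strand. The distal promoter of RUNX2 is shown because it holds the letters of the RUNX motif, TGTGGT, 4 times, all on the reverse strand as ACCACA (capitals), at 191 and 87 bases before and 16 and 24 bases after the start of the canonical transcript.
RUNX2 promoter, GRCh38.p14, chr6:45328080-45328379, plus strand: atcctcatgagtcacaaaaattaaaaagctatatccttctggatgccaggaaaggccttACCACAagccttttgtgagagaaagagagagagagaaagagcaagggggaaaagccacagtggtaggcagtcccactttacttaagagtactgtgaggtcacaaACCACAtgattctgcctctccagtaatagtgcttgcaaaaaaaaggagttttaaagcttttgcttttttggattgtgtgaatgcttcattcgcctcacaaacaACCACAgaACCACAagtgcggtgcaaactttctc
Of all promoter windows, 13.1% had at least 1 match and 0.0142% had 4 or more. The second RUNX2 window in the RefSeq table, 93945 bases downstream, had 0 matches, which says only that these letters are not in it. Among 14 windows of 7 of the factors in that table, 3 held TGTGGT, 2 held CAGGTG, 2 held the half-site TGACG of CREB-type factors, 1 held CATCTG, an E-box bound by TWIST proteins, and 0 held TAATTA, a homeodomain site. The shares over all windows were 13.1%, 20.6%, 24.6%, 14.7% and 4.84%. TWIST1, SNAI1 and SNAI2 had no entry.

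RUNX2 itself measured 13.9, 14.5 and 11.6 CPM in DOX- libraries and 13.5, 14.8 and 15.4 CPM in DOX+ libraries, from 404 to 559 reads. The groups overlapped, with DOX- replicate 3 the lowest library, and without it the log2 fold change of 0.13 came to 0.03. RUNX2 was at 109% of the DOX- level (interval 93.8% to 127%; adjusted p = 0.598, edgeR). RUNX1 measured 82.3, 77.5 and 81.2 CPM in DOX- libraries and 82.5, 83.6 and 82.7 CPM in DOX+ libraries. The groups did not overlap, but DOX- replicate 1 and DOX+ replicate 1 all but met, and RUNX1 was at 103% (interval 97.0% to 110%; log2 fold change 0.05, adjusted p = 0.651, edgeR). The log2 fold change of RUNX1 was 0.0216 without DOX- replicate 2 and 0.0158 with the trend on transcript length removed. SUPT3H overlaps RUNX2 in the genome, where reads of the 2 genes could be mixed if strand was not used in counting. It had 132 to 175 reads per library (log2 fold change −0.07, adjusted p = 0.893, edgeR).

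CREB3L1 (ENSG00000157613) lies on chromosome 11 from 46277662 to 46321409, plus strand. It measured 298, 301 and 323 CPM in DOX- replicates 1, 2 and 3 and 264, 248 and 281 CPM in DOX+ replicates 1, 2 and 3, from 8801 to 11251 reads. Every DOX+ library lay below every DOX- library, DOX- replicate 3 being the highest and DOX+ replicate 2 the lowest. CREB3L1 fell from 307 ± 13.4 CPM to 264 ± 16.3 CPM (SD, n = 3), to 86.1% of the DOX- level (interval 80.2% to 92.4%; log2 fold change −0.22, standard error 0.0470, adjusted p = 0.0485, edgeR). The exact permutation p was 0.1, the smallest possible. This adjusted p is close to the threshold and was 0.0576 with library size scaling, 0.0567 with upper-quartile scaling, 0.0526 with the trend on transcript length removed, and 0.116, 0.104, 0.205, 0.179 and 0.121 without DOX- replicate 1, 2 or 3 or DOX+ replicate 1 or 2. The direction was the same in each of these settings, with log2 fold changes from −0.26 to −0.17 when one library was omitted.

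**Figure D3:**
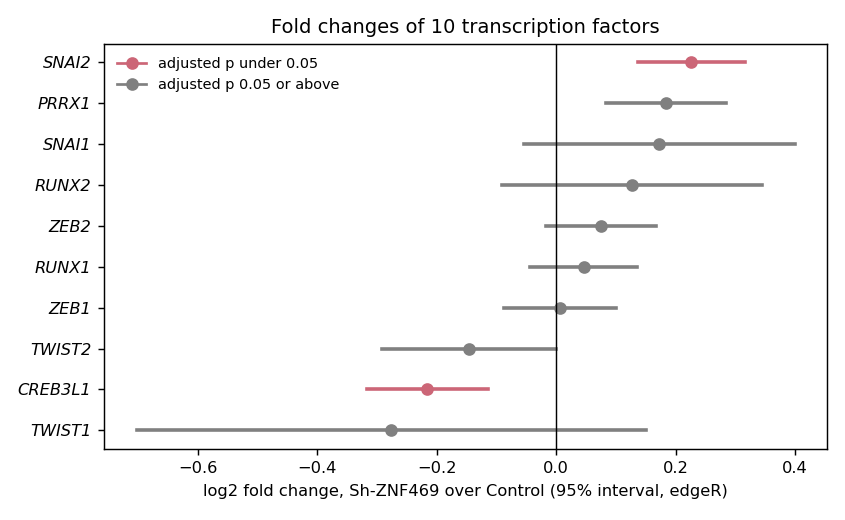
Log2 fold change of each factor, Sh-ZNF469 (DOX+) over Control (DOX-), with its 95% interval from edgeR's quasi-likelihood fit, in red where the adjusted p was under 0.05. SNAI2 (0.23) and CREB3L1 (−0.22) are in red, PRRX1 (0.18) has an interval above 0 with an adjusted p of 0.0823, and TWIST1 has the widest interval.

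**Figure D4:**
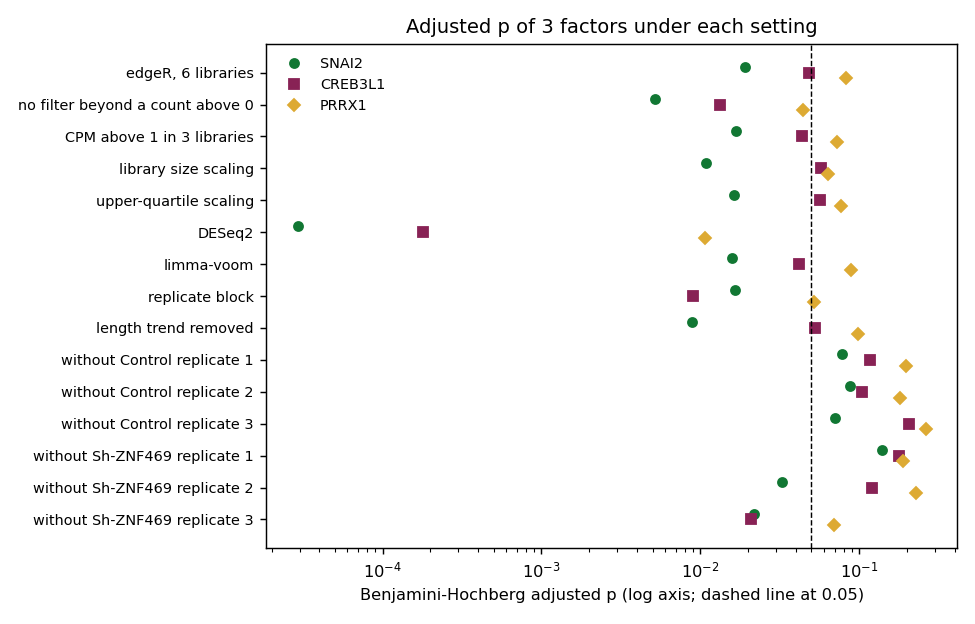
Benjamini-Hochberg adjusted p of SNAI2, CREB3L1 and PRRX1 (log axis, dashed line at 0.05) in the edgeR fit of 6 libraries and under each alternative setting. SNAI2 passes in all 8 alternatives that keep the 6 libraries at this threshold and in 2 of the 6 that leave one out, CREB3L1 in 5 and 1, and PRRX1 in 2 and 0.

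Whether close relatives responded differently was asked with the ratio of their counts within each library, which needs no scaling. The log2 ratio of SNAI1 to SNAI2 was −3.47 ± 0.106 in DOX- and −3.52 ± 0.0670 in DOX+ libraries (SD, n = 3), a difference of −0.05. The differences for TWIST1 to TWIST2, ZEB1 to ZEB2 and RUNX1 to RUNX2 were −0.12, −0.07 and −0.08. Omitting one library changed the sign of the TWIST difference, from −0.35 without DOX- replicate 2 to 0.04 without DOX+ replicate 1 (0.03 without DOX- replicate 1), and of the RUNX difference, from −0.18 without DOX- replicate 2 to 0.02 without DOX- replicate 3. The SNAI difference ran from −0.11 without DOX- replicate 2 to −0.0016 without DOX- replicate 1, and the ZEB difference from −0.10 to −0.03. In each of the 4 pairs the groups overlapped, and the exact two-sided permutation p-values were 0.7, 0.8, 0.3 and 0.7 for the SNAI, TWIST, ZEB and RUNX pairs (0.8 for each after Benjamini-Hochberg adjustment over 4 pairs, with 0.1 the smallest p possible). No difference in response between relatives was detectable with 3 libraries a group, although SNAI2 passed the test of its own change and SNAI1 did not.

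The 2 units the authors deposited gave different pictures for some factors. FPKM followed the counts closely for SNAI2, TWIST2, PRRX1, SNAI1 and CREB3L1, whose ratio of CPM to FPKM varied 1.03-fold to 1.05-fold over the 6 libraries. For ZEB2 it varied 1.33-fold, for RUNX2 1.23-fold, for TWIST1 1.18-fold, for RUNX1 1.14-fold and for ZEB1 1.10-fold. ZEB2 read 18.1 FPKM in DOX- replicate 3 and 13.6 FPKM in DOX+ replicate 3, where its CPM was 98.2 and 98.1. SNAI1 had separate groups in FPKM (4.50 to 5.35 against 5.38 to 6.02) and in unscaled counts (295 to 338 against 357 to 387), and overlapping ones in TMM-normalised CPM (8.39 to 9.98 against 9.86 to 10.9). The statements above on change rest on the counts.

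**Figure D5:**
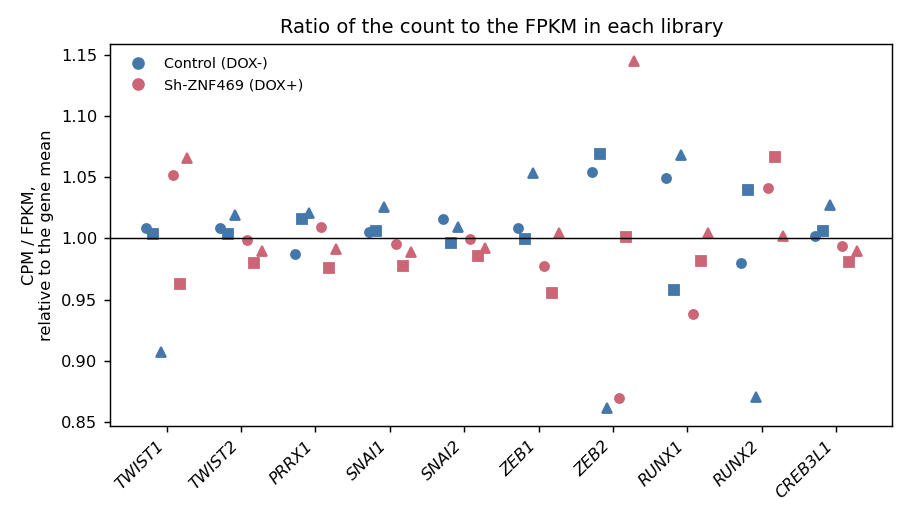
Ratio of TMM-normalised CPM to deposited FPKM in each library, divided by the mean of that gene over the 6 libraries, with colours for groups and circles, squares and triangles for replicates 1, 2 and 3. Points of SNAI2 lie close to 1, while those of ZEB2 spread over a 1.33-fold range without separating the groups.

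Genes that work with these factors were read from the same fit. For the lists that follow, 15.0% of all tested features had an unadjusted p under 0.05 in edgeR. The share past an adjusted p of 0.05 was 1.12% in edgeR and 3.77% in DESeq2. The partners of TWIST proteins and the ID proteins, which sequester those partners, had 0 of 7 genes past the threshold in edgeR, DESeq2 or limma-voom, with 2 at an unadjusted p under 0.05, TCF12 (log2 fold change 0.11) and TCF4 (0.12), and a list median of 0.08. Those with the most reads, ID3 and ID2, had log2 fold changes of 0.08 each (adjusted p = 0.389 and 0.382, edgeR). Of 9 RUNX cofactors 0 passed in the 3 tools, 2 being at an unadjusted p under 0.05, CBFB (0.12) and TLE5 (−0.12), around a list median of −0.0064. TLE4, second to TLE5 in reads, was at 0.08 (adjusted p = 0.404, edgeR). Corepressors of SNAI and ZEB factors had 0 of 11 past the threshold in edgeR and limma-voom and 1 in DESeq2, AJUBA (−0.18, edgeR adjusted p = 0.0826, and 0.032 without DOX+ replicate 3), with 3 at an unadjusted p under 0.05 (AJUBA, CTBP2 and SUZ12). HDAC2 (0.08) and CTBP1 (−0.09) had the most reads. Of 11 genes for the turnover of SNAI proteins 0 passed in the 3 tools, with 3 at an unadjusted p under 0.05 (CSNK1A1, FBXO11 and PAK1). The kinase genes CSNK1A1 (0.09, edgeR adjusted p = 0.276) and LATS2 (0.05, edgeR adjusted p = 0.606) had the most reads of the list. The other members of these gene families had 0 of 8 past the threshold in the 3 tools and 2 at an unadjusted p under 0.05, MSC (−0.24) and PRRX2, at a list median of −0.13. RUNX3, CREB3L3, TCF15 and HAND1 had 0 reads in all libraries. CREB3L2, which acts on secretion in cartilage and is the closest relative of CREB3L1, measured 218 ± 2.68 CPM in DOX- and 226 ± 3.34 CPM in DOX+ cells (SD, n = 3; log2 fold change 0.06, adjusted p = 0.472, edgeR).

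Known targets showed a mixed picture. The 3 collagen genes all fell: COL1A1 by 0.69, COL1A2 by 0.50 and COL3A1 by 0.50 on the log2 scale (adjusted p at most 1.13e-06, edgeR), beside −0.22 for CREB3L1. The proteases that release CREB3L1 and the secretory genes it acts on had 0 of 11 past the threshold in edgeR and limma-voom and 1 in DESeq2, KDELR3 (0.15, edgeR adjusted p = 0.0962), with TRAM2 and KDELR3 at an unadjusted p under 0.05 and a list median of 0.0065. SURF4 (0.0031) and SEC31A (0.05) had the most reads of them. Among 25 epithelial genes that SNAI and ZEB factors repress, 13 had enough reads to be tested, 5 had 0 reads in all libraries (ESRP1, GRHL2, OVOL1, OVOL2 and ST14), and CDH1 had 0 to 4 reads per library. DSP, which encodes the desmosome protein desmoplakin, rose in DOX+ cells from 97.1 ± 1.54 CPM to 117 ± 4.50 CPM (SD, n = 3). Its log2 fold change was 0.27 (adjusted p = 0.0057, edgeR), and it was the 1 of 13 that passed in edgeR, beside 1.12% of all features. KRT18 was at 0.15 (interval 101% to 121% of the DOX- level, edgeR adjusted p = 0.273), and the list median was 0.0066. DESeq2 also passed CLDN1, a tight junction gene, in the other direction (−0.32, edgeR adjusted p = 0.0684). At an unadjusted p under 0.05 in edgeR there were 3 of 13 (DSP, KRT18 and CLDN1), beside 15.0% of all features. Of 13 genes that RUNX2 activates in bone, 3 had enough reads, 0 passed in the 3 tools and 0 had an unadjusted p under 0.05. ALPL, the alkaline phosphatase gene of bone, was at 0.992 CPM in DOX- cells, with a log2 fold change of 0.01.

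Mesenchymal genes moved in both directions. Among 19 tested, POSTN (0.60) and TNC (0.15) rose and SPARC (−0.60), DCN (−0.18) and LUM (−0.22) fell, with adjusted p-values from 2.15e-09 to 0.0499 in edgeR and a list median of 0.02. DESeq2 passed 8 of the 19, AXL and CDH11 being the additions, limma-voom passed 6, and 11 had an unadjusted p under 0.05 in edgeR. LUM and TNC each lost their call when any one library other than DOX+ replicate 2 was omitted (edgeR adjusted p from 0.0654 to 0.205 and from 0.0733 to 0.172), and DCN without DOX- replicate 1 (0.0529). With the 6 libraries, LUM also lost it with library size scaling (0.0824), with upper-quartile scaling (0.0522) and after removal of the length trend (0.0805), and TNC after removal of the length trend (0.158). The genes with the most reads, FN1 (0.06, edgeR adjusted p = 0.0775) and VIM (−0.02, edgeR adjusted p = 0.605), did not pass. FN1 did pass without DOX+ replicate 2 (0.08, edgeR adjusted p = 0.00615), with library size scaling (0.08, 0.00597) and with the replicate block (0.06, 0.00334). Among 27 other transcription factors of collagen genes, 1 passed and fell, CEBPB, a bZIP factor known from inflammation and adipocytes, from 83.3 ± 1.11 CPM to 69.5 ± 1.10 CPM (SD, n = 3; log2 fold change −0.26, adjusted p = 0.00557, edgeR; 0.0163 to 0.0438 with one library left out). YBX1 (−0.10, edgeR adjusted p = 0.208) and NFE2L1 (−0.02, edgeR adjusted p = 0.812) had the most reads of them, and the list median was −0.04. In edgeR 8 of the 27 had an unadjusted p under 0.05, beside 15.0% of all features. SOX4 and SP3 were higher, and CEBPB, ETV4, FOSL1, RFX1, SOX9 and YBX1 were lower. Neighbours of the factors in the genome, HDAC9 next to TWIST1 and TMEM189 and UBE2V1 near SNAI1, had log2 fold changes of 0.03, −0.07 and 0.03 (0 of 4 with SUPT3H at an unadjusted p under 0.05 in edgeR, and 0 past the threshold in the 3 tools).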

How the data were processed

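RNA from 3 DOX- and 3 DOX+ IMR-90 libraries was poly(A)-selected and sequenced in read pairs of 150 bp. Per the methods and the submitters' processing notes, the authors used HISAT2 to map quality-filtered reads to GRCh38 and StringTie for quantification. Versions, annotation release, strand setting and the counting step were not given in the sources used here. The deposited counts are whole reads per feature without normalization, and the deposited FPKM values were computed by the authors. Lines with no gene (17) were dropped. GENCODE 44 of GRCh38 gave coordinates and lengths; it may not be the authors' release.

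Counts were fitted with edgeR 4.0.16 in R 4.3.3 (filterByExpr with a minimum count of 10, TMM factors from 0.988 to 1.01, quasi-likelihood test without covariates, p-values adjusted over 13991 features by the Benjamini-Hochberg method). The standard error was obtained from the log2 fold change and its F statistic, and 95% intervals use the moderated degrees of freedom. The fit was tested on simulated counts with changes of 0.5 and 1 on the log2 scale. It called 58.6% of genes changed by 0.5 and 79% of genes changed by 1. Of its calls 2.84% were false, and 95.3% of the 95% intervals held the true value. Changes as small as those of the 10 factors were not simulated, so a factor that did not pass may still have changed. Ratios of relatives used counts plus 0.5 and exact two-sided permutation tests. Libraries held at least 34057675 reads, and counting error at the mean count is given for TWIST1 beside its spread. Alternatives were 2 other filters, 2 other scalings, DESeq2 1.42.0, limma-voom (limma 3.58.1), the replicate number as a block, subtraction of a lowess fit (span 0.3) on transcript length from each library, an adjusted p under 0.01, FPKM for ratios, CPM per kilobase for levels (its ratios of relatives were added after seeing the data), and each library left out.

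The members, gene lists and tests were chosen with earlier results of these data known. Named genes are the 10 factors, ZNF469, the genes of each list past the threshold (at most 5 by p-value), its 2 tested genes with the highest mean log CPM, the 3 collagen genes and genes beside a factor; LUM, AJUBA, KDELR3, CLDN1, AXL, CDH11 and the genes named at an unadjusted p under 0.05 were added after their values were seen. A few genes that the rule names are not reported here. TLE5 was matched through its identifier. Promoter sequences are from RefSeq (GRCh38.p14), with entries for 7 of the 10 factors.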

Additional observations from a re-analysis of the deposited data

How the results depend on the processing

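Over all features, 56 were higher and 100 lower at an adjusted p under 0.05 in edgeR. The counts were 127 and 163 without the filter, 88 and 77 with library size scaling (where the median log2 fold change of all features was 0.0188), 260 and 267 with DESeq2 and 19 and 54 at an adjusted p under 0.01; leaving out one library gave 20 to 69 and 54 to 92. Higher factors numbered 2 without the filter and with DESeq2, where PRRX1 joined SNAI2 (log2 fold change 0.19 in both), and 0 at an adjusted p under 0.01; lower factors numbered 0 with library size or upper-quartile scaling, after removal of the length trend and at an adjusted p under 0.01. With one library left out, each count was 0 to 1. CREB3L1 was at −0.20 with library size scaling, −0.21 with the upper quartile and −0.20 without the length trend, past the threshold in none of the 3. Leaving out one library gave 0.20 to 0.25 for SNAI2 and −0.26 to −0.17 for CREB3L1. DESeq2 gave no adjusted p for TWIST1. Beyond DESeq2, AJUBA and CLDN1 also passed without the filter (adjusted p = 0.0448 and 0.0423) and with the replicate block (0.0453 and 0.0492), and KDELR3 with the length trend removed (0.0483).

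Fold changes that turned sign were those of ZEB1 (−0.0246 with the length trend removed and −0.0141 to 0.0448 with one library left out), ALPL (−0.0002 with limma-voom and −0.1074 to 0.112 with one library left out), HDAC9 (−0.0087) and VIM (0.0072) with the length trend removed, VIM (0.0006) with library size scaling, and, with one library left out, NFE2L1 (−0.0475 to 0.0048), SUPT3H (−0.1893 to 0.081) and SURF4 (−0.0066 to 0.009). The cause was not tested.

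The replicate numbers are shared by both groups but nothing in the labels ties them to a culture or day, and deviations of same-numbered libraries correlated at −0.0241, −0.0352 and 0.0362. With the replicate block, 135 features were higher and 157 lower, SNAI2 (adjusted p = 0.0165) and CREB3L1 (0.009) kept their calls and no other factor gained one. With FPKM in place of counts the differences in ratio turned sign for ZEB1 to ZEB2 (0.0019) and RUNX1 to RUNX2 (0.10). By CPM per kb of the canonical transcript, 6 of the 10 factors kept their place in the order. TWIST1, SNAI1 and RUNX2 had the fewest reads of the 10 factors, 196 to 559 per library.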
